A study of Mus musculus with 62 samples.

Results

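A set of 10 chaperone and co-chaperone genes was described in mouse hippocampus and in a hippocampal cell line: Hspd1, Hspe1 and Hspa9 of the mitochondrial matrix, the small heat shock protein genes Cryab and Hspb8, and the co-chaperone genes Bag3, Stip1, Ahsa1, Chordc1 and St13. They were taken by gene name from long-RNA sequencing tables, where they are 10 of 53975 gene identifiers. The mice carried the APP NL-G-F allele, a knock-in of mutations of familial Alzheimer's disease into the mouse App gene that is expressed from the App locus itself (APP below), or were C57BL/6J mice (WT below). Long RNA of the pooled left and right hippocampus of 1 mouse made each library, and ages were 3, 6 and 12 months. Each APP age had 3 mice, and WT had 2 mice at the youngest age and 3 at both later ones. HT-22 cells, an immortalised mouse hippocampal line, were exposed for 24 h to a locked nucleic acid (LNA) directed at Hsf1, labelled 150 nM, or to a scramble control LNA, labelled 50 uM. Peptide was then added at 30 uM, either amyloid beta 1-42 (Aβ42) or its reversed sequence. All HT-22 groups thus received an LNA and a peptide, and the LNA comparisons are also comparisons of 2 labelled LNA doses. The scramble LNA groups held 4 libraries for each peptide, and the anti-Hsf1 LNA groups held 3, all named as biological replicates in the series' design text. No member passed the test in any of 14 comparisons after scaling. The clearest pattern was a set of 3 scramble libraries, set apart by high immediate-early genes, with high Hspa9, Hspd1, Hspb8 and Bag3. In these libraries 15.5% of all tested genes were likewise higher than in the other 11 HT-22 libraries without overlap, and 12.0% were lower.

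Chaperones bind unfolded proteins and help them fold, or pass them on for degradation. Hspd1 and Hspe1 encode the barrel and the lid of the mitochondrial chaperonin, and Hspa9 encodes mortalin, the matrix Hsp70 that pulls imported proteins into mitochondria. Small heat shock proteins such as Cryab and Hspb8 hold unfolded proteins without using ATP. Cryab is known as an abundant product of oligodendrocytes and astrocytes in brain. Bag3 pairs with Hspb8 and releases substrates from Hsp70 toward autophagy. Stip1 links Hsp70 to Hsp90, St13 stabilises the ADP-bound form of Hsp70, Ahsa1 stimulates the Hsp90 ATPase and Chordc1 binds Hsp90. Many chaperone genes are targets of Hsf1, the heat shock transcription factor, which binds inverted repeats of GAA in promoters.

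Because the LNA was directed at Hsf1, the promoters of the members were searched for such repeats. RefSeq promoter windows of 300 bases (250 before and 50 after a start, GRCm38.p6) matched 7 of the 10 members in 8 windows. Hspa9, Cryab and St13 had no entry. Both strands were covered by the self-complementary motifs GAANNTTC and TTCNNGAA, which may overlap each other, and 15.1% of 32851 windows held at least 1. Windows of 5 members held a match, and those of Hspd1, Hspe1 and Chordc1 held at least 3 units in a row, that is GAA and TTC in alternation with NN between them, as 0.603% of all windows did. The sites are shown in 30 bases each, 5′ to 3′ on the strand of the gene, with the matched run in capitals, because they are the sequence feature that the LNA target bears on.
Hspe1, chr1:55088053-55088082, plus strand: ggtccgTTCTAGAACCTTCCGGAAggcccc
Hspd1, chr1:55088053-55088082, minus strand: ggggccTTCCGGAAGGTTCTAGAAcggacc
Chordc1, chr9:18292260-18292289, plus strand: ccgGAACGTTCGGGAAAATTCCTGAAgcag
Hspb8, chr5:116422844-116422873, minus strand: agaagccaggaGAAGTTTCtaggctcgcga
Bag3, chr7:128523603-128523632, plus strand: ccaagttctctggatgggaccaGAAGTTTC
The Hspe1 and Hspd1 lines are the same site read in opposite directions, since these neighbouring genes are transcribed away from each other and share a promoter. The run ends 72 bases before the Hspe1 start and 127 bases before the inner of 2 listed Hspd1 starts. It has 18 bases in 3 overlapping matches. It lies after the outer Hspd1 start, and the window of that start held no match. The Chordc1 run has 23 bases in 4 overlapping matches and spans the start, from base -4 to base 19. Hspb8 and Bag3 each held a single match of 8 bases after the start, at bases 3 to 10 and 43 to 50, and the windows of Ahsa1 and Stip1 held none. A match is a run of letters, and binding of Hsf1 was not measured.

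The values below are TPM, a length-corrected share of all transcripts, multiplied by a median of ratios factor within the mouse or the HT-22 libraries, called scaled TPM. A gene was called changed where limma's Benjamini-Hochberg adjusted p over all tested genes was below 0.05. Depth could be read only as the ratio of Coverage to FPKM, which ran between 1.42 and 3.04 for the mice and between 0.724 and 2.60 for the cells. Before the comparisons, several libraries stood apart. Aβ42 scramble replicates 3 and 4 and reverse scramble replicate 4 had summed immediate-early genes of 1452 to 1763 scaled TPM, against 153.9 to 248.2 in the other 11 HT-22 libraries. The APP libraries at 3 months held 62.6 to 518.8 scaled TPM of 6 thalamus markers and 65.6 to 261.5 of 7 striatum markers, against 39.1 to 144.9 and 37.8 to 71.8 in the other mouse groups. Among neuron markers, Gad1, Prox1, Rbfox3, Snap25 and Syt1 were listed at 0 in every HT-22 library, so these defining markers of neurons were not seen in the line. Libraries of WT mice at 6 and 12 months lacked Xist (0.26 to 0.52 scaled TPM), whereas all other mouse groups had 70.6 to 137.4. Genotype at 6 and 12 months, and age in WT mice against 3 months, therefore cannot be told apart from sex. The same holds for the interaction of genotype and age.

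Levels of the members differed between hippocampus and HT-22 cells most for Hspb8 and Bag3. On a scale set over all 31 libraries together, Hspb8 had a median of 9.62 in hippocampus and 46.2 in HT-22 cells, 4.81-fold higher in the cells. Bag3, its partner, had medians of 4.86 and 22.7, or 4.66-fold higher in the cells. The ranges of both genes did not overlap between the systems. Cryab went the other way, with a median of 57.4 in hippocampus and 27.1 in HT-22 cells, a ratio of 2.12 with no overlap. Hspd1 was 1.44-fold higher in HT-22 cells, with hippocampal values up to 121.9 and cell values from 128.7. The ranges of Hspe1, Hspa9, Stip1, Ahsa1, Chordc1 and St13 overlapped. These are descriptions of a tissue and a cell line from separate preparations, and no test was made between them. In bulk RNA, fewer cells of a type and less RNA per cell cannot be told apart.

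**Figure D1:**
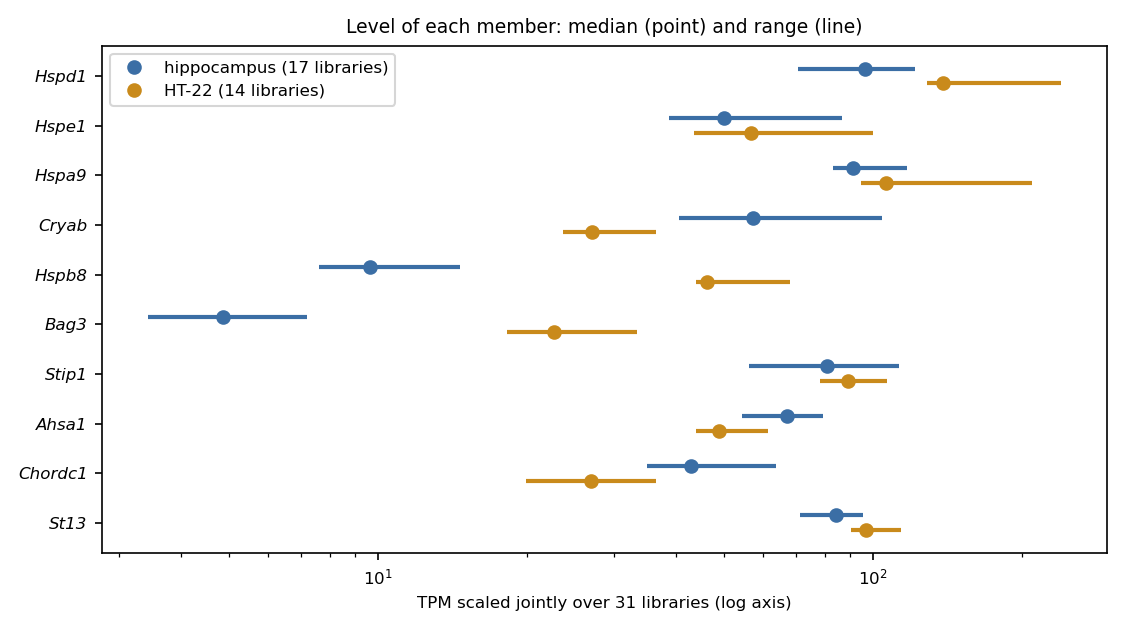
Median (point) and range (line) of each member over 17 hippocampus and 14 HT-22 libraries, as TPM scaled jointly, on a log axis. Hspb8 and Bag3 sit 4.81-fold and 4.66-fold higher in HT-22 cells, and Cryab is the member with a clearly higher hippocampal range.

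Within each system the members spanned a wide range. TPM is corrected for gene length, so levels can be set beside each other. In HT-22 cells the mean scaled TPM of Hspd1 was 219.3, above 98.04% of 17224 tested genes, followed by Hspa9 at 179.9, St13 at 141.6 and Stip1 at 128.7. Bag3 was lowest there at 34.3, above 75.4% of genes. In hippocampus Hspd1 again led with 71.7, above 95.01% of 17767 tested genes, and Hspa9, St13 and Stip1 had means of 69.2, 63.1 and 59.4. Hspb8 at 7.61 and Bag3 at 3.70 lay near or under the middle of the tested hippocampal genes, above 48.8% and 31.8% of them. All 10 members passed the filter on low values in both systems.

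Hspe1 stood below its chaperonin partner in every library. The ratio of Hspe1 to Hspd1 was 0.395 to 0.724 in hippocampus and 0.298 to 0.463 in HT-22 cells. The gene models of the pair overlap by 112 bases on opposite strands (Hspd1, chromosome 1, 55077835 to 55088243, minus strand; Hspe1, 55088132 to 55091307, plus strand), and the sources used here do not give whether counting used strand. Some pseudogenes named after the pair also had signal. Hspd1-ps3 was listed at 6.88 to 12.2 scaled TPM in hippocampus and 31.8 to 52.6 in HT-22 cells, and Hspe1-ps5 reached 13.1 in HT-22 cells. The other Hspd1 copies were at most 0.368. Whether reads of Hspd1 or Hspe1 were counted for such copies was not tested, so the levels of both genes are uncertain. Cryab (chromosome 9, 50751325 to 50756636) shares 1030 bases with Hspb2 on the other strand, but Hspb2 was at most 1.79 scaled TPM in any library.

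In HT-22 cells the comparison of LNAs asks what reduced Hsf1 does to these genes under either peptide. Hsf1 itself was read first. With Aβ42 it was 49.0, 62.0, 64.2 and 71.3 scaled TPM under scramble LNA and 43.3, 51.4 and 46.7 in the libraries labelled anti-Hsf1. With the reverse peptide it was 53.4, 43.2, 61.9 and 56.6 under scramble and 52.6, 43.1 and 49.0 in the libraries labelled anti-Hsf1. The groups overlapped in both cases. The log2 change was -0.37 (SE 0.14, limma adjusted p 0.520) with Aβ42 and -0.15 (SE 0.14, adjusted p 0.959) with the reverse peptide, so a fall of the target passed the test in neither.

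No member was called in any HT-22 comparison by limma. Over all 17224 genes the percentage called was 0.0232 for the LNAs under Aβ42, and 0.0 for the LNAs under the reverse peptide, for the peptides under either LNA and for the interaction of LNA and peptide. No member had an unadjusted p under 0.05 in these 5 comparisons. The members' median log2 change was 0.03 for the LNAs under Aβ42 (5 above and 5 below 0) and -0.14 under the reverse peptide (2 above and 8 below), while all genes had medians of 0.00 in both. For Aβ42 against the reverse peptide the medians were -0.02 under scramble and 0.03 under anti-Hsf1 LNA. A member with the spread of Hspd1 had a 95% interval of -0.67 to 0.23 for the LNAs under Aβ42, so changes of moderate size were not detectable with these groups.

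Among the mitochondrial members, Hspa9 had the largest standard error. Under Aβ42 its scramble values were 152.5, 145.3, 279.1 and 295.1 scaled TPM, and its anti-Hsf1 values were 153.1, 146.5 and 136.1. Replicates 3 and 4 of the scramble group were high, and replicates 1 and 2 lay among the anti-Hsf1 values. The log2 change was -0.51 (SE 0.28, limma adjusted p 0.567). It was -0.04 (SE 0.09) without the 3 libraries high in immediate-early genes, and -0.76 with sample weights, where limma did call it (adjusted p 0.0347) along with 10.7% of all genes. With the reverse peptide, Hspa9 was 151.2, 153.6, 144.1 and 299.4 under scramble and 142.3, 156.1 and 165.1 under anti-Hsf1 LNA, again with 1 scramble replicate apart.

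Hspd1 followed the same libraries. It was 189.2, 188.3, 268.7 and 293.9 scaled TPM with Aβ42 and scramble LNA, and 199.4, 210.0 and 184.8 with Aβ42 and anti-Hsf1 LNA. With the reverse peptide it was 193.4, 205.4, 187.2 and 342.6 under scramble and 200.3, 199.9 and 206.9 under anti-Hsf1 LNA. Its log2 changes for the LNAs were -0.22 with Aβ42 and -0.15 with the reverse peptide, and without the 3 libraries they were 0.07 and 0.05. Hspe1 was high in reverse scramble replicate 4 (142.7) but lay at 62.5 to 97.5 in all 13 others. The groups overlapped for all 3 genes in every HT-22 comparison. Across the 10 members, none separated for the LNAs under the reverse peptide (3.15% of all genes upward, 2.82% downward) or for the peptides under scramble LNA (0.935% and 1.42%).

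Of the small heat shock genes, Hspb8 took part in the pattern and Cryab did not. Hspb8 was 65.5, 65.4, 94.7 and 84.1 scaled TPM with Aβ42 and scramble LNA, and 68.4, 63.0, 66.4 and 96.7 with reverse peptide and scramble LNA. In the 6 libraries labelled anti-Hsf1 it ran from 65.0 to 70.7. Cryab ran from 33.9 to 52.4 over the 14 libraries with every pair of groups overlapping. Its log2 changes for the LNAs were 0.07 with Aβ42 and -0.12 with the reverse peptide.

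Bag3 was 26.4, 32.7, 48.3 and 47.8 scaled TPM with Aβ42 and scramble LNA, and 34.8, 32.6 and 26.2 with Aβ42 and anti-Hsf1 LNA. With the reverse peptide it was 28.6, 35.7, 33.2 and 47.2 under scramble and 30.5, 27.3 and 28.6 under anti-Hsf1 LNA. As for Hspb8, its binding partner, the high values were those of the 3 libraries. Pearson's r of Bag3 with Hspb8 was 0.832 over the 14 libraries and -0.242 over the 11 without these 3. The log2 change of Bag3 for the LNAs with Aβ42 was -0.27 (SE 0.21, limma adjusted p 0.632), and 0.07 without the 3 libraries.

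The remaining co-chaperones were Stip1, Ahsa1, Chordc1 and St13, of which only Stip1 had groups that separated. With Aβ42 it was 118.1, 122.9, 126.8 and 130.0 scaled TPM under scramble and 137.0, 133.6 and 132.6 under anti-Hsf1 LNA. The log2 change was 0.11 (SE 0.10, adjusted p 0.674), and 4.38% of all genes had groups that did not overlap in that direction (4.16% in the other). Stip1 under anti-Hsf1 LNA also did not overlap between Aβ42 and the reverse peptide (132.4, 112.6 and 120.4), a comparison in which 8.74% of genes were separated upward and 9.61% downward. Ahsa1 ran from 63.3 to 88.1, Chordc1 from 28.7 to 52.5 and St13 from 130.8 to 164.0, with overlap in every comparison.

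**Figure D2:**
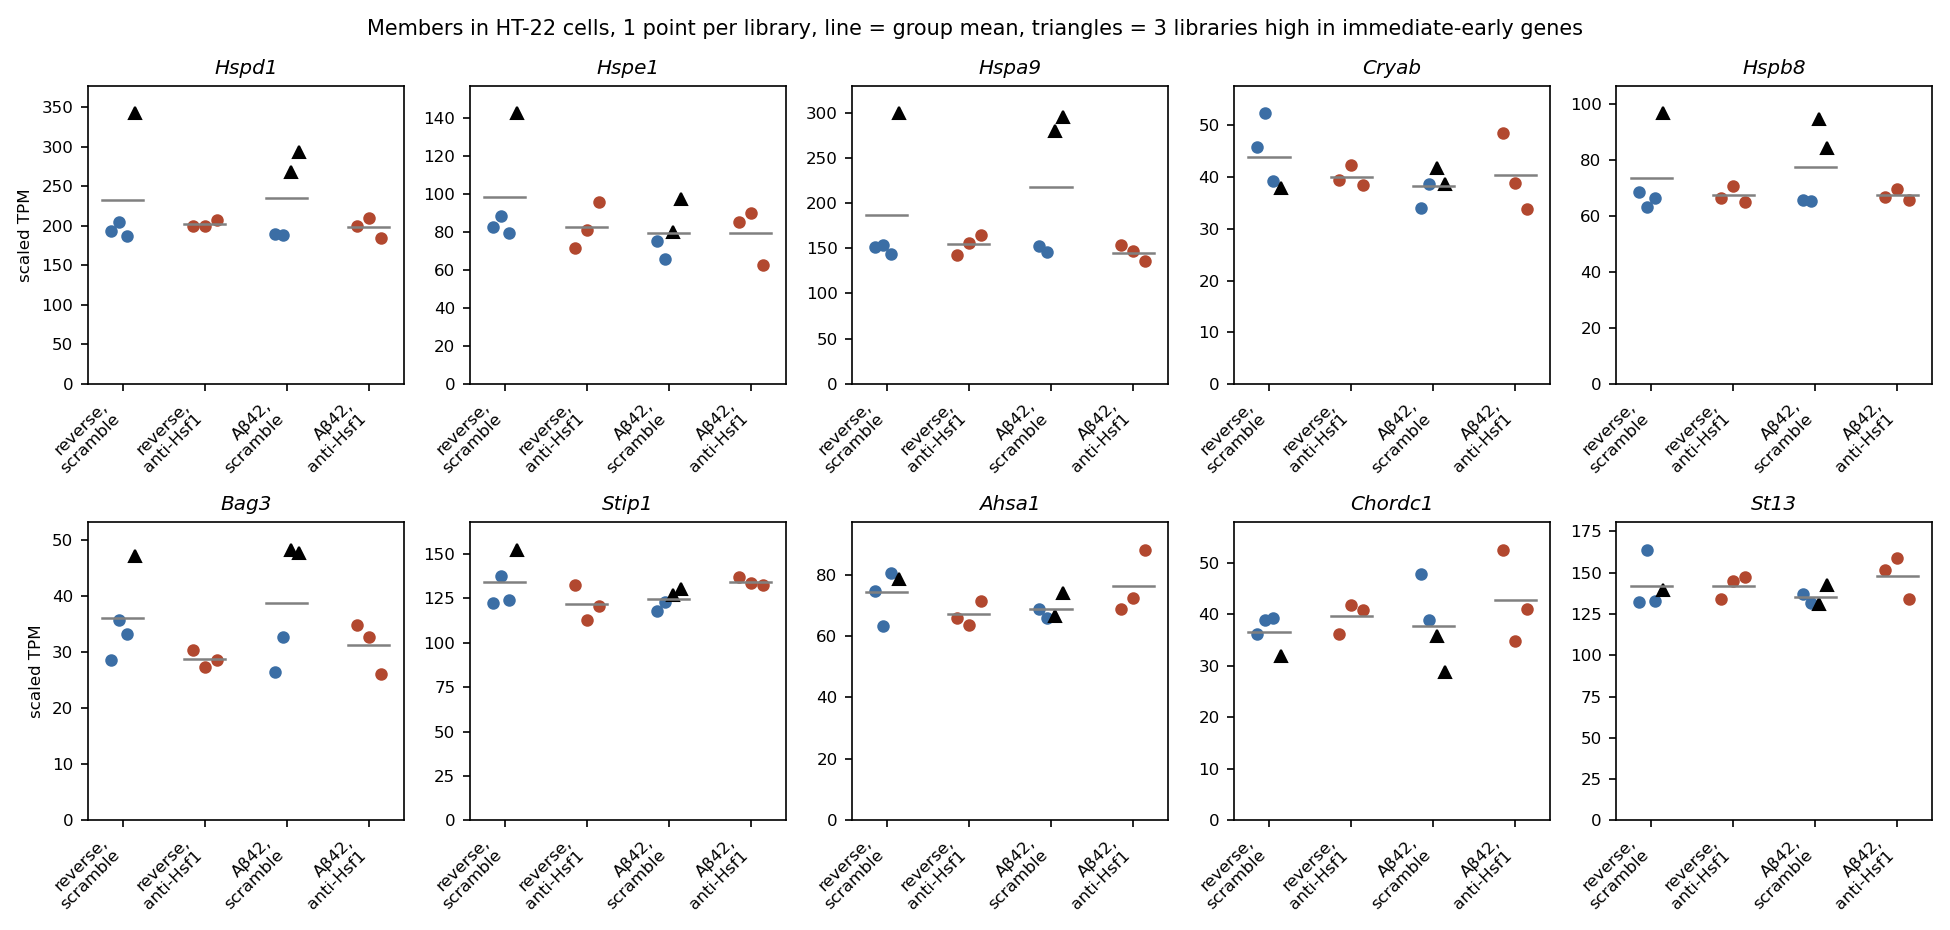
Scaled TPM of the 10 members in the 14 HT-22 libraries, by peptide and LNA (red anti-Hsf1, blue scramble), with 1 point per library and a line at the group mean. The black triangles are the 3 scramble libraries high in immediate-early genes, and they lie above all other points for Hspd1, Hspa9, Hspb8 and Bag3.

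The 3 libraries were then set beside the other 11 for every member. Hspa9 was 279.1 to 299.4 scaled TPM in the 3 and 136.1 to 165.1 in the rest. Hspd1 was 268.7 to 342.6 against 184.8 to 210.0, Hspb8 84.1 to 96.7 against 63.0 to 70.7, and Bag3 47.2 to 48.3 against 26.2 to 35.7. These 4 of 10 members were higher without overlap, as were 15.5% of all tested genes, and no member was lower without overlap (12.0% of genes). Chordc1 was not among them and had 28.7 to 35.7 in the 3 libraries and 34.7 to 52.5 in the others. Summed levels of 15 mitochondrial chaperone partners and proteases were 456 to 505.3 against 368.4 to 402.4, and those of 14 cytosolic Hsp70, Hsp90, Hsp40 and Hsp110 genes were 3015 to 3087 against 2448 to 2812. In the same libraries, 8 microglia markers summed to 77.0 to 78.6 against 34.8 to 43.6, and 6 endothelial and mural markers to 89.7 to 122.8 against 35.0 to 45.8. The 8 choroid plexus markers summed to 101.6 to 112.4 against 39.6 to 61.4. Of the defining markers, C1qa, C1qb, P2ry12 and Tyrobp of microglia and Clic6, Kl, Otx2 and Ttr of choroid plexus were listed at 0 throughout. Cldn5, Flt1, Pecam1 and Rgs5 of the endothelial and mural list had medians under 1 scaled TPM over the HT-22 libraries. The relative depth of these 3 libraries was 1.203, 1.635 and 2.599, against 0.724 to 1.214 in the other 11. The part of these features in the member levels was not tested.

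Without the 3 libraries, limma again called no member in any HT-22 comparison (0.0% of genes for the LNAs under the reverse peptide, 0.00581% for the peptides under scramble LNA and 0.0232% in the others), and 16 of 50 member changes had the other sign. The members' median for the LNAs under Aβ42 was then 0.11 with 8 of 10 above 0. TPM as deposited gave another picture, in which all 10 members were called lower under anti-Hsf1 LNA with Aβ42, by -0.53 (Chordc1) to -1.22 (Hspa9) on the log2 scale. On that scale 50.7% of all genes were called and the median of all genes was itself shifted by -0.62, so the members' median of -0.68 lay close to it. TPM as deposited also called 4 members lower between the peptides under anti-Hsf1 LNA (24.3% of genes) and 2 in the interaction (25.3%).

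The mouse comparisons ask how the genes differ with the APP allele at 3 ages, which the submitters describe as before symptoms, at their onset and at the end stage. After scaling, limma called no member at 3, 6 or 12 months, where 0.304%, 1.71% and 0.433% of 17767 genes were called. The interaction of genotype and age also called none (0.467% of genes). The members' median log2 change of APP against WT was 0.11 at 3 months (7 above 0), -0.02 at 6 months (4 above 0) and 0.21 at 12 months (9 above 0), with all-gene medians of 0.00. On TPM as deposited, 9 of 10 members were called higher in APP at 6 months, with 58.0% of all genes called and an all-gene median of 0.60, and 4 in the interaction with age (33.1% of genes). P-values here measure the spread between separate mice.

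**Figure D3:**
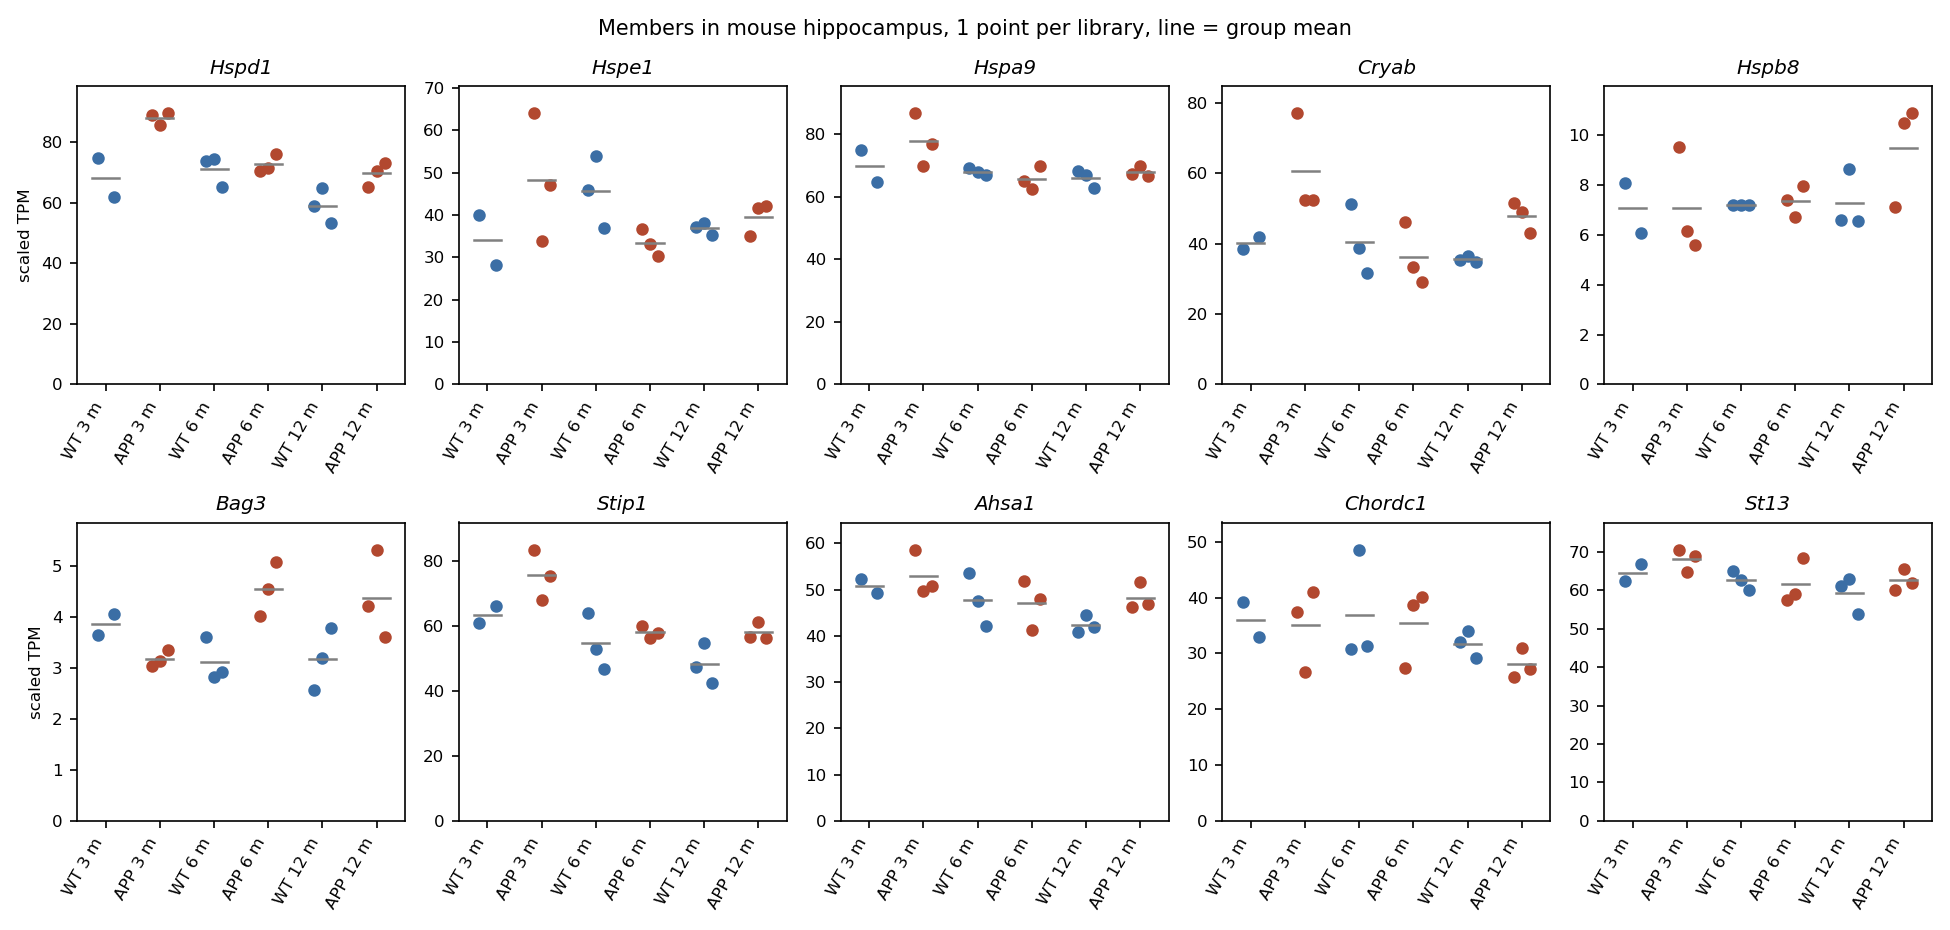
Scaled TPM of the 10 members in 17 hippocampus libraries, by genotype (red APP, blue WT) and age, with 1 point per mouse and a line at the group mean. APP mice at 3 months lie highest for Hspd1, Cryab and Stip1, and Bag3 stays under 6 scaled TPM throughout.

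Among the mitochondrial members, Hspd1 differed most clearly between young APP mice and all others. It was 88.9, 85.8 and 89.6 scaled TPM in APP mice at 3 months, and 74.7 and 61.9 in WT mice of that age. At 6 months it was 70.4, 71.5 and 76.0 in APP and 73.8, 74.6 and 65.2 in WT mice, and at 12 months 65.3, 70.5 and 73.2 in APP and 58.9, 64.8 and 53.3 in WT mice. The genotypes did not overlap at 3 and 12 months and overlapped at 6 months. The log2 changes were 0.37 (SE 0.11, limma adjusted p 0.165) at 3 months, 0.03 at 6 months and 0.24 (SE 0.10, adjusted p 0.603) at 12 months. At 3 months thalamus markers summed to 62.6 to 518.8 scaled TPM in APP and 41.6 to 54.45 in WT mice. Oligodendrocyte markers summed to 1574 to 2638 and 1468 to 1544 at that age. Over the 17 mice the median r of Hspd1 with 8 oligodendrocyte markers was 0.535. The part of tissue composition in the Hspd1 values was not tested.

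Hspe1 did not follow Hspd1 closely. It was 64.1, 33.9 and 47.0 scaled TPM in APP mice at 3 months, against 39.9 and 28.2 in WT mice, with overlap. At 6 months it was 36.8, 33.1 and 30.2 in APP and 45.9, 54.0 and 37.0 in WT mice, which did not overlap (log2 change -0.43, SE 0.19, limma adjusted p 0.278). At 12 months it ran from 35.2 to 42.0 in APP and 35.2 to 38.2 in WT mice. Hspa9 was steadier, at 62.5 to 86.8 over all 17 mice, with overlap of the genotypes at each age and log2 changes of 0.15, -0.05 and 0.05 at 3, 6 and 12 months.

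Cryab, the lens and glial small heat shock protein, was 77.2, 52.4 and 52.3 scaled TPM in APP mice and 38.5 and 41.9 in WT mice at 3 months. At 6 months it was 46.1, 33.4 and 29.0 in APP and 51.4, 38.7 and 31.6 in WT mice. At 12 months it was 51.7, 49.1 and 43.2 in APP and 35.4, 36.6 and 34.8 in WT mice. APP values lay above WT values without overlap at 3 and 12 months, with log2 changes of 0.56 (SE 0.21, limma adjusted p 0.258) and 0.42 (SE 0.19, adjusted p 0.678). Hspb8 ran from 5.59 to 10.9 over all mice, and its highest values, 10.5 and 10.9, came from 2 of the 3 APP mice at 12 months (the third had 7.10).

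Bag3 was the low member, and its direction differed from that of Hspd1. It was 3.04, 3.14 and 3.35 scaled TPM in APP and 3.66 and 4.06 in WT mice at 3 months, and 4.03, 4.56 and 5.08 in APP and 3.61, 2.83 and 2.93 in WT mice at 6 months. APP values were thus all lower at 3 months and all higher at 6 months, with log2 changes of -0.22 (limma adjusted p 0.655) and 0.43 (SE 0.15, adjusted p 0.163). The test of that difference over ages was not passed (interaction, limma adjusted p 0.248). At 12 months Bag3 was 4.22, 5.33 and 3.61 in APP and 2.57, 3.20 and 3.79 in WT mice, with overlap.

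Stip1, the Hsp70 to Hsp90 adaptor, was 83.4, 67.9 and 75.2 scaled TPM in APP and 60.9 and 65.9 in WT mice at 3 months. At 12 months it was 56.6, 61.2 and 56.3 in APP and 47.2, 54.6 and 42.5 in WT mice, again without overlap, and the log2 change was 0.27 (SE 0.12, limma adjusted p 0.663). Ahsa1 was 46.3, 51.6 and 46.8 in APP and 40.8, 44.4 and 42.0 in WT mice at 12 months, also without overlap, and overlapped at both other ages. Chordc1 ran from 25.8 to 48.6 and St13 from 53.9 to 70.6, with overlap of the genotypes at every age.

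Counting these separations, 3 members were higher in APP mice without overlap at 3 months (13.8% of all genes) and 1 was lower (13.4%). At 6 months 1 was higher (11.1%) and 1 lower (10.2%). At 12 months Hspd1, Cryab, Stip1 and Ahsa1 were higher (8.62%) and none was lower (6.99%). At 12 months, 5 of 8 microglia markers were called higher in APP mice and their sum was 365.4 to 482.4 against 158.8 to 196.1 scaled TPM. The sum of 7 astrocyte markers was 1573 to 1748 against 1214 to 1242, with Gfap called higher. Sums of endothelial and mural markers (30.5 to 35.9 against 20.8 to 24.3) and of choroid plexus markers (1450 to 1673 against 426.1 to 1321) also did not overlap, with none of their genes called. The sum of 8 oligodendrocyte markers was likewise higher in APP mice without overlap (1138 to 1265 against 1004 to 1048). That of 8 neuron markers was lower without overlap (2207 to 2317 against 2346 to 2533). The part of these markers in the member values was not tested.

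Age was compared within each genotype. By limma, 2.38% of genes were called between 6 and 3 months in APP mice, 3.27% between 12 and 3 months and 0.54% between 12 and 6 months, with no member among them. The closest was Cryab between 6 and 3 months, at -0.73 on the log2 scale (SE 0.19, adjusted p 0.0563). The call was made, with adjusted p 0.0445, when genes with a mean under 5 TPM were left out (3.9% of genes called), and also without APP replicate 1 at 6 months (-0.92, adjusted p 0.0294; 1.99% of genes). In that comparison 6 of 10 members had an unadjusted p under 0.05, beside 18.6% of all genes. Hspd1, Hspa9, Cryab and Stip1 lay lower at 6 months without overlap (10.2% of genes) and Bag3 higher (10.2%).

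Between 12 and 3 months in APP mice, the log2 difference of Hspd1 was -0.34 (SE 0.10, limma adjusted p 0.0847) and that of Stip1 -0.37 (SE 0.12, adjusted p 0.120). Hspd1, Cryab and Stip1 lay lower without overlap (10.7% of genes) and Bag3 higher (11.3%). Between 12 and 6 months no member separated (10.7% of genes upward, 9.32% downward). In WT mice, limma called 0.0619% of genes between 12 and 3 months and 0.0% between 12 and 6 months, and no member. Stip1 had a WT log2 change of -0.40 (SE 0.14, adjusted p 0.453) between 12 and 3 months, and it lay lower without overlap together with Cryab and Ahsa1 (13.7% of genes), with none higher (13.3%). Hspd1 lay lower in WT mice at 12 than at 6 months (6.15% of genes; 6.05% upward, with no member). The age comparisons in APP mice share the 3-month libraries with the first genotype comparison.

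The order of group means shows the same libraries at the top. APP mice at 3 months had the highest mean for Hspd1 (88.1 scaled TPM), Cryab (60.6) and Stip1 (75.5), and WT mice at 12 months the lowest (59.0, 35.6 and 48.1). Each of these genes had 1 pair of neighbours in the order that did not overlap, the APP 3-month group and the next one, and the other 4 pairs overlapped. Hspe1, Hspa9, Ahsa1 and St13 also had their highest mean in APP mice at 3 months, with all 5 neighbouring pairs overlapping. Ahsa1 and St13 also had their lowest mean in WT mice at 12 months. For Hspb8 and Bag3 all 5 neighbouring pairs overlapped.

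Oligodendrocyte markers are given beside Cryab, Stip1, Hspa9 and Ahsa1. Their r with a member over the 17 mice had a median of 0.760 for Cryab, 0.782 for Stip1, 0.748 for Hspa9 and 0.636 for Ahsa1. The sum of 8 of them was 1574 to 2638 scaled TPM in APP and 1468 to 1544 in WT mice at 3 months, 882 to 1115 and 807 to 1054 at 6 months, and 1138 to 1265 and 1004 to 1048 at 12 months. By limma, 7 of the 8 were called lower in APP mice at 6 than at 3 months, with a median log2 change of -1.07, and 5 of the 8 at 12 months. In WT mice the median sum was 1506 at 3 and 1013 at 6 months, while Cryab was 38.5 and 41.9 at 3 months and 51.4, 38.7 and 31.6 at 6 months, with overlap. The APP library with the highest Cryab and Stip1, replicate 1 at 3 months, also had the highest oligodendrocyte sum (2638) and the highest thalamus sum (518.8). Without that library the Cryab change between 6 and 3 months was the smallest among those with 1 library left out, at -0.55 with adjusted p 0.187. In HT-22 cells, where the 8 markers summed to at most 5.68, Cryab was still 33.9 to 52.4. The part of cell composition in the levels of these members was not tested.

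**Figure D4:**
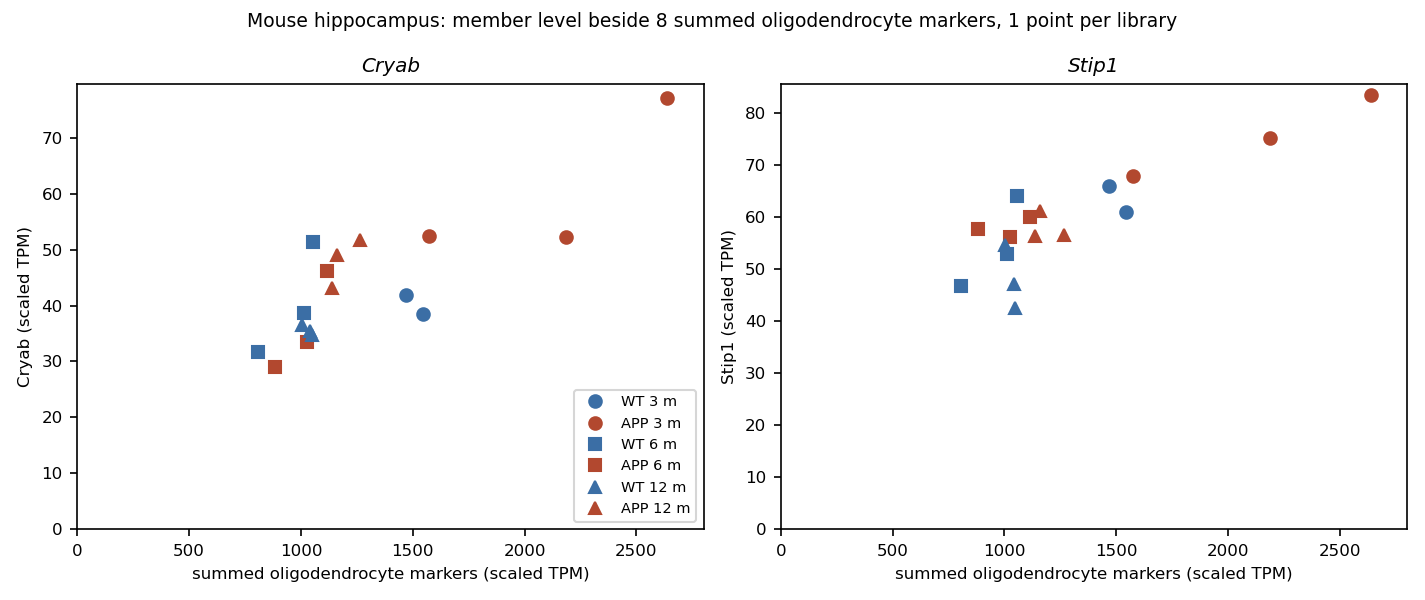
Scaled TPM of Cryab and Stip1 against the sum of 8 oligodendrocyte markers in 17 hippocampus libraries, 1 point per mouse, coloured by genotype (red APP, blue WT) and shaped by age. The APP library with the highest Cryab and Stip1 is also the one with the highest oligodendrocyte sum (2638).

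Genes with the most similar pattern over the 17 hippocampus libraries were ranked by Pearson's r among 10988 genes with a mean of at least 5 TPM, which leaves out Bag3. The values are descriptions over libraries that share tissue composition. Cryab was closest to Mag (0.865) and Plekhb1 (0.864), and 5 of 8 oligodendrocyte markers were among its 100 nearest genes. Stip1 was closest to Scg2 (0.903) and Adamts4 (0.873), with 7 of the 8 markers among its 100 nearest. Hspa9 had 4 of the 8 markers there and Ahsa1 had 2. Hspd1 was closest to Ccdc186 (0.874) and to Hsph1 (0.871), a cytosolic Hsp110, and Hspa9 to Rdx (0.916) and Slc16a1 (0.902). Hspe1 was farther from its partner Hspd1, with an r of 0.511 that puts it in place 773. Among the members Stip1 and Ahsa1 were most alike (0.845), followed by Hspd1 and Stip1 (0.817).

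The nearest genes of the remaining members were Rbx1 (0.888) and Arf2 (0.873) for Hspe1, Zfp36l1 (0.786) and Crebl2 (0.783) for Hspb8, and Tprn (0.897) and Kank1 (0.882) for Ahsa1. They were Srsf3 (0.861) and Peli1 (0.858) for Chordc1 and Gm4130 (0.840) and Msantd4 (0.838) for St13.

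In HT-22 cells r was taken over all 14 libraries and again over the 11 without the 3 that stood apart. For several members the nearest genes over 14 were farther over 11. Hspa9 was closest to Hmga2 (0.991, then 0.676) and Apol8 (0.990 over 14), Hspd1 to Cfl1 (0.984, then 0.776) and Cct2 (0.983, then 0.908), and Hspb8 to Ddit4 (0.981, then 0.70) and Eif5a (0.980, then 0.744). Bag3 was closest to Cdk4 (0.962, then 0.854) and U2af2 (0.949, then 0.760), Hspe1 to Skp1a (0.903, then 0.814) and Ndufs5 (0.902, then 0.817), and Stip1 to Cyb5r3 (0.817, then 0.666) and Zfp862-ps (0.779, then 0.746). Chordc1 was closest to 1700066M21Rik (0.856, then 0.740) and Rad51ap1 (0.852, then 0.785).

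The other 3 members did not lose likeness in this way. St13 was closest to Zmat2 (0.911, then 0.935) and Hnrnph2 (0.885, then 0.892), Cryab to Gm8623 (0.832, then 0.886) and Dnajc21 (0.819, then 0.842), and Ahsa1 to Mrps14 (0.842, then 0.876) and Rpl17-ps10 (0.794, then 0.797). Among the members, r of Hspd1 with Hspe1 was 0.782 over 14 libraries and 0.789 over 11. Hspd1 with Hspa9 fell from 0.962 to 0.561, and Hspa9 with Hspb8 from 0.941 to -0.005. Hspd1 with St13 rose from 0.014 to 0.814. The median r over 45 pairs of members was 0.13 over 14 libraries and 0.085 over 11.

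The wider chaperone pathway was read from 60 genes in 6 lists: mitochondrial partners and proteases, other small heat shock proteins, other Bag genes, other Hsp70 and Hsp90 co-chaperones, cytosolic Hsp70, Hsp90, Hsp40 and Hsp110 genes, and heat shock factors. None of 55 tested genes was called in any HT-22 comparison, and none of 54 in APP against WT mice at any age. In APP mice, 2 rose and 2 fell between 3 and 6 months, and 2 rose and 2 fell between 3 and 12 months, beside 2.38% and 3.27% of all genes called. Of 12 tested immediate-early genes, Fos, Dusp1 and Egr2 were called lower in both comparisons, with list medians of -0.59 and -1.10. The immediate-early sum was 132.2, 378.1 and 401 scaled TPM over the APP mice at 3 months, 153.4 to 184 at 6 months and 125.2 to 130.6 at 12 months, and its part was not tested. The other pathway genes, including all 15 mitochondrial partners and proteases, did not pass.

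Dnajb1, the Hsp40 that hands substrates to Hsp70, was 18.6, 22.2 and 20.3 scaled TPM in APP mice at 3 months, 14.2, 13.7 and 13.3 at 6 months and 13.3, 11.2 and 11.4 at 12 months. It fell by 0.54 (SE 0.10, limma adjusted p 0.0141) to 6 months and by 0.72 (SE 0.10, adjusted p 0.00181) to 12 months on the log2 scale. Fkbp4, an Hsp90-bound immunophilin of steroid receptors, fell by 0.48 (SE 0.10, adjusted p 0.0268) and 0.47 (SE 0.10, adjusted p 0.0221). Its paralog Fkbp5, a glucocorticoid-induced gene that restrains the receptor, went the other way: 7.86, 10.8 and 11.8 at 3 months, 17.4, 21.2 and 18.5 at 6 months and 17.95, 16.97 and 15.63 at 12 months. It rose by 0.86 (SE 0.16, adjusted p 0.0164) and 0.70 (SE 0.16, adjusted p 0.0307).

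Hspa2, an Hsp70 of testis and brain, rose by 0.49 (SE 0.11, limma adjusted p 0.0386) and 0.46 (SE 0.11, adjusted p 0.0385). Fkbp5 was also the pathway gene called in the interaction of genotype and age (limma adjusted p 0.0389), a call lost in 16 of 24 alternatives. Its WT values were 21.2 and 15.2 at 3 months, above all APP values of that age. At 6 months they were 12.8, 14.2 and 9.84, below all APP values of that age. WT mice lacked Xist at 6 and 12 months only, so this interaction cannot be told apart from sex. Most of these calls were lost when single libraries were left out: without APP replicate 1 at 3 months those of Fkbp5, Fkbp4 and Hspa2 were lost in both age comparisons, and that of Dnajb1 in neither. The fall of Dnajb1 to 12 months was lost in 1 of 14 alternatives, the fit of only the 2 groups compared (adjusted p 0.0533). Its fall to 6 months was lost in 4 of 14, which were TPM as deposited (-0.24), only the groups compared, and leaving out APP replicate 2 or 3 at 6 months, with adjusted p up to 0.300.

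**Figure D5:**
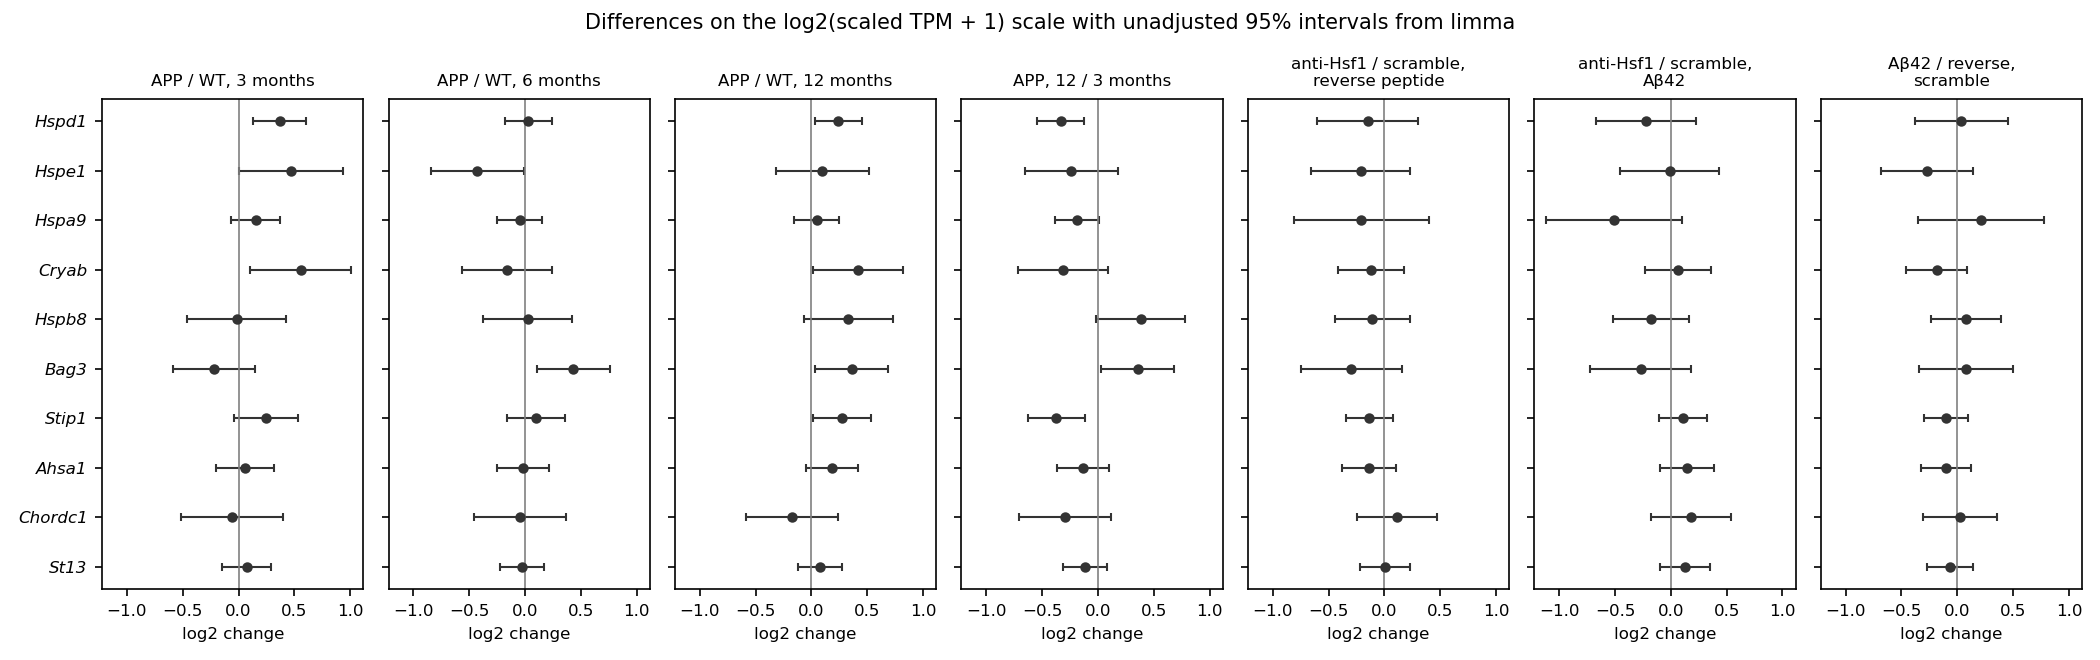
Log2 change of each member with its unadjusted 95% interval from limma in 7 comparisons, on the log2(scaled TPM + 1) scale. Intervals that miss 0, such as Hspd1 and Cryab at 3 months, are those with unadjusted p under 0.05, and none passed after adjustment over all genes.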

How the data were processed

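Long-RNA libraries were made after fragmentation and removal of ribosomal RNA, per the labels' protocols. Each library has a deposited gene table with TPM, FPKM and a Coverage signal, per the file headers. The submitters' processing notes list FastQC, cutadapt 1.18, BWA 0.7.17, HISAT2 2.1.0, StringTie 1.3.4d and bedtools 2.26.0, with no roles given, and the mm10 build (GRCm38). Deposited TPM sums to 999823 to 999917 per library. The deposited FPKM and Coverage signal were used only for relative depth, since the tables hold no read numbers. The short-RNA libraries were not used here.

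TPM was summed per gene identifier and multiplied by median of ratios factors (0.685 to 1.45 in mouse, 0.812 to 1.57 in HT-22). Genes with a mean of at least 1 scaled TPM were tested with limma 3.58.1 (R 4.3.3; trend, robust, two-sided) on log2(scaled TPM + 1), which understates changes of low genes, with 1 fit of 6 mouse groups and 1 of 4 HT-22 groups. Calls are at a Benjamini-Hochberg adjusted p below 0.05. On simulated data, 64% of 200 genes changed by 1 on the log2 scale were recovered among 17767 for APP against WT at 12 months, and 48% among 17224 for the LNAs under the reverse peptide. All members are named in each comparison. Of other genes, called pathway genes (at most 4 by adjusted p per list and comparison), overlapping or copied genes and the 2 genes of most similar pattern are named. Members, lists and tests were chosen with earlier results of these data known. The alternatives were other scalings, pseudocount and filters, sample weights, a replicate block, only the groups compared, and leaving libraries out. Leaving out the 3 scramble libraries was chosen after seeing the data. Promoter sequences are from RefSeq.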

Additional observations from a re-analysis of the deposited data

Results flagged for a closer look

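In the groups of 4 HT-22 libraries, the highest or lowest value was compared with the rest of its group by Dixon's rule. Of 20 pairs of a member and a group, 4 had a library far from the others, and chance gives about 1 in 20. All 4 were the reverse peptide and scramble LNA replicate 4: Hspd1 at 342.6 scaled TPM (next 205.4), Hspe1 at 142.7 (next 88.2), Hspa9 at 299.4 (next 153.6) and Hspb8 at 96.7 (next 68.4). This library is 1 of the 3 with high immediate-early genes. The rule cannot pick out the 2 high libraries of the Aβ42 and scramble group, since they lie near each other.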

How the results depend on the processing

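Scaling decided the calls. On TPM as deposited, limma called 10 members for the LNAs under Aβ42, 4 for the peptides under anti-Hsf1 LNA, 2 for the interaction of LNA and peptide, 9 for APP against WT at 6 months and 4 for the interaction of genotype and age, against 0 in each after scaling. Directions were reversed there for the LNAs under Aβ42 in Cryab (-0.64), Stip1 (-0.61), Ahsa1 (-0.57), Chordc1 (-0.53) and St13 (-0.59), and for the peptides under anti-Hsf1 LNA in Hspb8 (-0.58), Stip1 (-0.44) and St13 (-0.53). The same held for St13 in the interaction (-0.63) and, at 6 months, for Hspa9 (0.66), Cryab (0.54), Ahsa1 (0.68), Chordc1 (0.65) and St13 (0.68). The all-gene medians moved with them. Sample weights called 1 member for the LNAs under Aβ42 (Hspa9, -0.76), and the cause was not tested. Between 6 and 3 months in APP mice, Cryab was the 1 member called with the mean of at least 5 TPM, where fewer genes are tested, and 1 member with the replicate block (adjusted p 0.0253). Leaving out 1 library at a time gave 0 to 1 members called there and 0 in each other comparison.

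Deviations from group means correlated over 0.1 in 3 of 40 same-number pairs of libraries in mouse and 3 of 19 in HT-22. Pairs of different number did so in 8 of 80 and 6 of 54. The median correlation in mouse was -0.0056 for same-number pairs and -0.0069 for the others, and in HT-22 it was 0.013 and 0.0022. Between APP mice at 3 and 6 months, where the block called Cryab, same-number pairs had 0.227, 0.158 and 0.064. The other pairs there had -0.187 to 0.032. Whether the numbers pair libraries was thus not settled. The block changed no other member call. Quantile normalization, pseudocount 0.1, no filter, only the groups compared and leaving out the 3 scramble libraries called no member. The interactions were not fitted on only the groups compared, since they use all groups. Counts over all genes varied more: for APP against WT at 6 months, 304 genes were called, 10339 on TPM as deposited and 37 with only the groups compared, and leaving out 1 library gave 68 to 286. The LNAs under Aβ42 gave 4 genes, 8766 on TPM as deposited, 1840 with sample weights and 0 to 16 with 1 library left out. Groups of 2 to 4 libraries limit what could be called.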
